A study of Oryza sativa with 4 samples.

Results

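The 9 genes described here encode the enzymes that turn ammonium into glutamine, glutamate and asparagine in rice: 4 glutamine synthetases (GS1;1, GS1;2, GS1;3 and GS2), 3 glutamate synthases (NADH-GOGAT1, NADH-GOGAT2 and Fd-GOGAT) and 2 asparagine synthetases (ASN1 and ASN2). They were chosen by locus identifier, not by a measured value, from 52795 loci on the array, and they carry 11 probes, since GS1;1 and ASN1 have 2 each. Of the 9 genes, 8 were bright enough to be tested. Transcripts were measured in whole seedlings of the japonica cultivar Nipponbare at an age of 14 days, grown in soil in a greenhouse. The wild type (2 arrays) was compared with transgenic line 40 (2 arrays), a Nipponbare line that overexpresses LOC_Os02g43330, a gene of the class I homeodomain-leucine zipper family. The study's design calls the 2 arrays of each group biological replicates. Line 40 is a single transgenic line, and the promoter that drives its transgene is not given in the sources used here.

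Glutamine synthetase joins ammonium to glutamate to make glutamine, and glutamate synthase passes the amide group of glutamine to 2-oxoglutarate to make glutamate. In leaves the plastid forms, GS2 and the ferredoxin-dependent Fd-GOGAT, recapture the ammonium set free by photorespiration. In rice the cytosolic GS1;1 is the main form of the shoot and GS1;2 is known from the root surface, where it assimilates incoming ammonium together with NADH-GOGAT1, an enzyme that is itself plastidial. Asparagine synthetase moves the amide group of glutamine to aspartate, and asparagine is a storage and transport form of nitrogen.

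Values below are normalized log2 signals, that is, log2 of the processed spot signal minus the array's 75th percentile, so that 0 is the 75th percentile of the array. Since every probe binds with its own strength, a value is compared only with the same probe on other arrays. The overexpressed gene matched the labels: LOC_Os02g43330 (HOX24) had processed signals of 1449 and 2116 in the wild type and 229115 and 280179 in line 40. On each array 37482 to 39802 of the 55046 probes lay well above background. In total 342 of 36900 tested loci were higher and 421 lower in line 40 (limma, Benjamini-Hochberg adjusted p under 0.05), or 251 and 156 after quantile normalization and 762 and 333 after the normexp background correction. The median difference over all tested loci was -0.06.

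None of the 8 tested genes of glutamine, glutamate and asparagine synthesis passed the test over all loci in either direction, where 2.07% of all tested loci did (limma, adjusted over 36900 loci). At an unadjusted p under 0.05 there were 4 of the 8, all of them with higher signal in line 40: GS1;2, GS2, NADH-GOGAT2 and Fd-GOGAT. Of all loci 24.8% lay under that unadjusted value. The 8 genes had a median log2 difference of 0.28, and 5 lay above 0, against 43.7% of all loci. The arrays of both groups did not overlap for 6 of the 8, against 59.4% of all loci, so a lack of overlap is common on these arrays. The pattern within the family was uneven: GS1;2, NADH-GOGAT2, GS2 and Fd-GOGAT had the higher values, GS1;1, NADH-GOGAT1 and ASN2 lay within 2 SE of 0, and ASN1 had a lower value whose size rested on 1 wild type array.

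**Figure D1:**
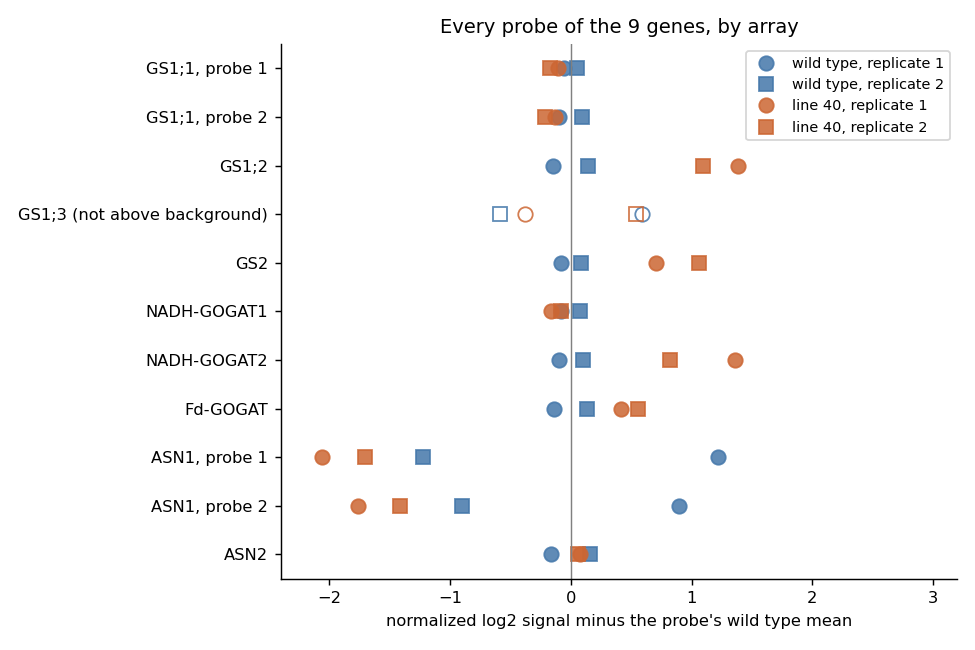
Normalized log2 signal of each of the 11 probes on the 4 arrays, with the probe's wild type mean set to 0 on the horizontal axis; blue symbols are wild type, orange symbols line 40, circles replicate 1 and squares replicate 2, and open symbols mark a probe not well above background on any array. For GS1;2, GS2, NADH-GOGAT2 and Fd-GOGAT both line 40 arrays lie to the right of both wild type arrays, and for ASN1 the wild type arrays lie far apart.

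Among the cytosolic glutamine synthetases, GS1;2 (LOC_Os03g12290) had the clearest difference. Its processed signal was 1789 and 2904 in the wild type and 5685 and 4961 in line 40, which gave normalized log2 signals of 2.29 and 2.57 against 3.82 and 3.53. Both line 40 arrays were above both wild type arrays, by 0.95 to 1.53 in the 4 pairwise comparisons. The means were 2.43 ± 0.20 and 3.67 ± 0.20 (SD, n = 2), a log2 difference of 1.24 (SE 0.19, 95% interval 0.75 to 1.73) or 2.36-fold, with a limma adjusted p of 0.0535. A larger difference in either direction was found for 4.96% of the tested loci. GS1;2 thus missed the threshold narrowly. It passed with median scaling (1.39, adjusted p = 0.00783) and after normexp (1.22, adjusted p = 0.0120). It did not pass after quantile normalization (1.14, adjusted p = 0.0714), after cyclic loess (1.11, adjusted p = 0.0644) or without the filter on dim probes (adjusted p = 0.110). Nor did it pass in the 4 fits on 3 arrays, which gave differences of 1.096 to 1.39.

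GS1;1 (LOC_Os02g50240), the form needed in rice for normal growth and grain filling, did not follow GS1;2. Its brighter probe read 6.21 and 6.40 in the wild type and 6.17 and 6.09 in line 40, and its other probe read 6.22 and 6.33 against 6.17 and 6.11. Both probes placed line 40 slightly under the wild type, by log2 differences of -0.17 (SE 0.16) and -0.14 (SE 0.15). For the locus the 95% interval ran from -0.57 to 0.23 (limma adjusted p = 0.537). That difference was -0.02 with median scaling and -0.51 after quantile normalization.

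GS1;3 (LOC_Os03g50490), a form known from the rice spikelet, was not well above background on any of the 4 arrays. Its processed signals were 4.70 and 2.78 in the wild type and 2.66 and 5.34 in line 40, under the lowest signal of any probe well above background, which was 9.97 to 10.9 on the 4 arrays. It was therefore not tested, and no fold is given.

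The plastid glutamine synthetase GS2 (LOC_Os04g56400) was brighter on both line 40 arrays. Its processed signal was 1504 and 2244 in the wild type and 2861 and 3912 in line 40, and its normalized log2 signals were 2.04 and 2.201 against 2.82 and 3.18. The means were 2.12 ± 0.12 and 3.004 ± 0.25 (SD, n = 2), a log2 difference of 0.89 (SE 0.19, 95% interval 0.40 to 1.37) or 1.85-fold, which missed the threshold (limma adjusted p = 0.0864). It passed after normexp (0.81, adjusted p = 0.0471) and with median scaling (1.03, adjusted p = 0.0253). It did not pass after quantile normalization (0.79, adjusted p = 0.113) or cyclic loess (0.78, adjusted p = 0.108). Nor did it pass with any single array left out, where the difference was 0.71 to 1.06.

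Fd-GOGAT (LOC_Os07g46460), the partner of GS2 in leaf plastids, showed the same order of arrays with a smaller step. It read 6.33 and 6.60 in the wild type and 6.88 and 7.02 in line 40. The log2 difference of 0.49 (SE 0.17, 95% interval 0.05 to 0.93), or 1.40-fold, did not pass (limma adjusted p = 0.175). It depended on the scaling, with 0.14 after quantile normalization and 0.21 after cyclic loess against 0.63 with median scaling, and it passed under none of the 13 alternatives.

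The NADH-dependent glutamate synthases differed from each other. NADH-GOGAT1 (LOC_Os01g48960), the root form, read 4.65 and 4.81 in the wild type and 4.56 and 4.65 in line 40, so that the groups overlapped. Its log2 difference was -0.12 (SE 0.15, 95% interval -0.51 to 0.27, limma adjusted p = 0.654), or 0.025 with median scaling. NADH-GOGAT2 (LOC_Os05g48200), known in rice from the vascular tissue of leaves, was a dim probe, with processed signals of 59.7 and 91.2 in the wild type and 181 and 133 in line 40. The corresponding normalized log2 signals were -2.62 and -2.42 against -1.16 and -1.70. Line 40 was higher on both arrays, with a log2 difference of 1.09 (SE 0.23, 95% interval 0.50 to 1.69) or 2.13-fold that missed the threshold (limma adjusted p = 0.0851). It passed with median scaling (1.24, adjusted p = 0.0185), whereas normexp, with its offset of 50, gave 0.62 (adjusted p = 0.0924).

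ASN1 (LOC_Os03g18130), the asparagine synthetase known from ammonium-fed rice roots, was low in line 40 and uneven in the wild type. Its brighter probe gave processed signals of 107.2 and 26.3 in the wild type and 12.2 and 16.6 in line 40, and the other probe gave 73.2 and 28.1 against 12.8 and 17.3. Both probes were highest on wild type replicate 1 and lowest on line 40 replicate 1, and the line 40 values lay close to the dimmest signals well above background. The normalized log2 means of the brighter probe were -2.99 ± 1.72 and -4.87 ± 0.25 (SD, n = 2). The log2 difference of -1.88 (SE 0.80, 95% interval -3.93 to 0.17) did not pass (limma adjusted p = 0.227), although only 1.77% of tested loci had a larger one. Without wild type replicate 2 it was -3.10 and passed (adjusted p = 0.0284), and without wild type replicate 1 it was -0.69 (adjusted p = 0.246). After normexp it was -0.78 (adjusted p = 0.308).

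ASN2 (LOC_Os06g15420), the asparagine synthetase of rice vascular tissue, had overlapping groups. It read -0.66 and -0.34 in the wild type and -0.42 and -0.44 in line 40, a log2 difference of 0.07 (SE 0.17, 95% interval -0.38 to 0.51, limma adjusted p = 0.834). Without wild type replicate 1 the difference was -0.091.

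The log2 difference of 2 probes was also taken on each array. It set the leaf plastid forms GS2 and Fd-GOGAT against the other glutamine synthetases and glutamate synthases, and ASN2 against ASN1. A constant scaling of an array cancels in this difference, but a normalization that depends on brightness does not. The pairs were not recomputed after quantile normalization or cyclic loess. Such a difference shows unequal change between the genes, not which of them moved. With 2 arrays against 2 an exact permutation test (two-sided) cannot go below p = 0.333, and adjusted over the 5 pairs the smallest value reached was 0.417. The exact p therefore separates none of the pairs, and each shift is given with the pooled SD within groups as a description. GS1;3 gave no value. GS2 minus GS1;1 was higher on both line 40 arrays: it was -4.17 and -4.20 in the wild type and -3.35 and -2.91 in line 40, a shift of 1.05 or 2.08-fold (pooled SD 0.22). For GS2 minus GS1;2 the values were -0.25 and -0.37 against -0.99 and -0.34, a shift of -0.36 with overlapping groups (pooled SD 0.33). That shift was -0.03 without line 40 replicate 1 and -0.68 without line 40 replicate 2.

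Fd-GOGAT minus NADH-GOGAT1 had the smallest spread within groups among the 5 pairs: it was 1.68 and 1.79 in the wild type and 2.31 and 2.37 in line 40, a shift of 0.61 or 1.52-fold (pooled SD 0.063). Against NADH-GOGAT2 the shift had the opposite sign, from 8.94 and 9.02 to 8.03 and 8.72, or -0.61 (pooled SD 0.34), and it was -0.10 after normexp. The single-gene differences of Fd-GOGAT and NADH-GOGAT2 lay further apart after quantile normalization (0.14 and 1.22) and cyclic loess (0.21 and 1.20) than as reported. Against GS1;1 and NADH-GOGAT1 the leaf plastid forms thus had positive shifts, and against GS1;2 and NADH-GOGAT2 negative ones. The groups overlapped for GS2 minus GS1;2, where the shift rested on line 40 replicate 1. ASN2 minus ASN1 was 1.12 and 3.87 in the wild type and 4.63 and 4.25 in line 40, a shift of 1.95 (pooled SD 1.39) that was 0.57 without wild type replicate 1 and 3.33 without wild type replicate 2.

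**Figure D2:**
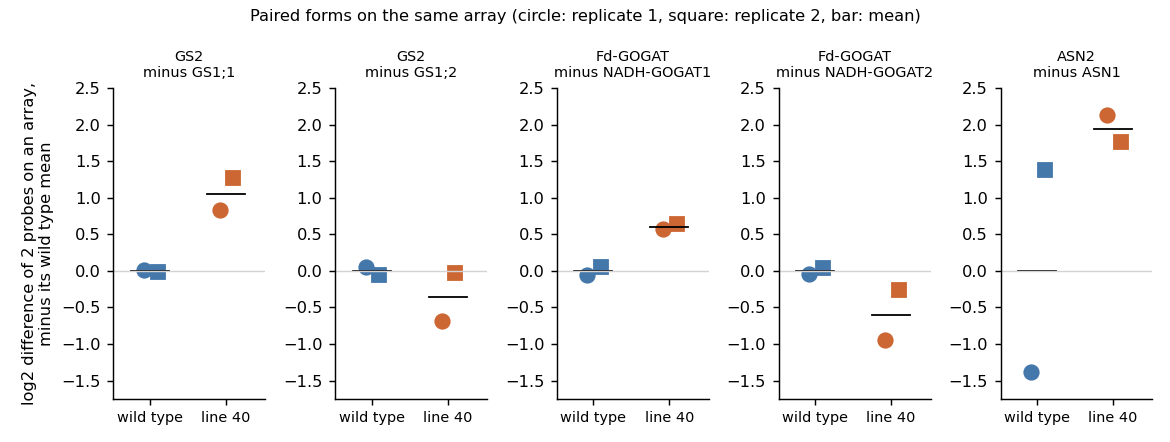
Log2 difference between the probes of 2 genes on the same array, with its wild type mean set to 0 on the vertical axis; circles are replicate 1, squares replicate 2, and bars the group means. The line 40 arrays lie above the wild type arrays for GS2 minus GS1;1 and Fd-GOGAT minus NADH-GOGAT1, and below them for Fd-GOGAT minus NADH-GOGAT2. They also lie above for ASN2 minus ASN1, where the wild type arrays are far apart. For GS2 minus GS1;2 line 40 replicate 1 lies below both wild type arrays and line 40 replicate 2 between them.

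Whole seedlings contain both leaf and root, so fewer cells of a type and less RNA per cell cannot be told apart. Of 12 leaf markers, genes of the photosynthetic apparatus and the Calvin cycle, 11 lay above 0 (43.7% of all loci) with a median difference of 0.68, and 4 rose (0.927% of all loci) (limma adjusted p 0.0276 to 0.0470): a Rubisco small subunit gene (LOC_Os12g17600, by 1.44), a light-harvesting protein gene (LOC_Os07g37240, by 1.38), and PSBO and GAPA (by 1.12 each). In the fits on 3 arrays these 4 had adjusted p values of 0.0413 to 0.176, with only the Rubisco gene still passing, and that without wild type replicate 2. None of the 4 passed after quantile normalization or without the filter on dim probes, and 1, the same Rubisco gene, passed after cyclic loess. As a multiple of the 75th percentile, the 12 leaf markers together summed to 3009 and 2629 in the wild type. In line 40 they summed to 3418 and 3541. Most of that signal came from the leaf markers RCA and CAB2R, with differences of 0.09 and 0.18 (limma adjusted p = 0.761 and 0.515). Of 10 root markers 4 lay above 0 (43.7% of all loci) with a median of -0.14. The transporter genes among them (LOC_Os02g40710, LOC_Os02g40730, NRT2.1, NRT2.2 and NAR2.1) also belong to the uptake list described further down, and all lay below 0. Of the other root markers PIP2;3, PIP2;5, RCC3 and LSI2 (0.08) lay above 0, and LSI1 (-0.10) lay below. None of the 10 passed in limma over all loci, where 2.07% of all tested loci did. At an unadjusted p under 0.05 there were 4 (24.8% of all loci). Those 4 were the aquaporin genes PIP2;3 (1.19, adjusted p = 0.0716) and PIP2;5 (1.14, adjusted p = 0.0578), RCC3 (0.49, adjusted p = 0.156) and the ammonium transporter gene LOC_Os02g40710 (-1.36, adjusted p = 0.0554). After normexp and with median scaling 2 root markers were higher, PIP2;3 and PIP2;5, and 1 was lower, LOC_Os02g40710. Of all 36900 loci 762 were higher and 333 lower after normexp, and 1480 higher and 1239 lower with median scaling. The summed signal of the root markers was 138 and 161 in the wild type and 225 and 210 in line 40, most of it from the root gene RCC3. The part of these shifts in the values of GS2, Fd-GOGAT and GS1;2 was not tested.

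Upstream of glutamine synthetase, most genes for the enzymes that reduce nitrate to ammonium did pass. The smallest passing difference, that of NIA1 (1.29, 95% interval 0.89 to 1.69), lay close to that of GS1;2 (1.24, 0.75 to 1.73), which did not pass. In the nitrate reduction list 4 of 5 genes rose and none fell, against 0.927% of all loci higher and 1.14% lower, with a list median of 1.61 against -0.06. The nitrate reductase gene NR2 (LOC_Os02g53130) had processed signals of 1321 and 2162 in the wild type and 13976 and 13130 in line 40, and rose 8.13-fold (log2 difference 3.02, SE 0.18, limma adjusted p = 0.00837). The nitrite reductase gene NIR2 (LOC_Os02g52730) had signals of 179 and 265 against 652 and 784, and rose 3.33-fold (1.74, SE 0.16, adjusted p = 0.0212). The other two were NIR and NIA1, with differences of 1.61 and 1.29 (adjusted p = 0.0241 and 0.0358). NIA2 (LOC_Os08g36500), which lies next to NIA1, was at 0.24 (SE 0.16, adjusted p = 0.405). The call of NR2 held with each array left out (adjusted p up to 0.0381), but NIR, NIR2 and NIA1 lost theirs without wild type replicate 1 or either line 40 array, and without the filter on dim probes none of the 4 passed (adjusted p 0.0583 to 0.0820). With cyclic loess NIA1 had an adjusted p of 0.0522, and with quantile normalization a difference of 0.91 (adjusted p = 0.0835), so that 3 of the 5 genes passed under either.

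**Figure D3:**
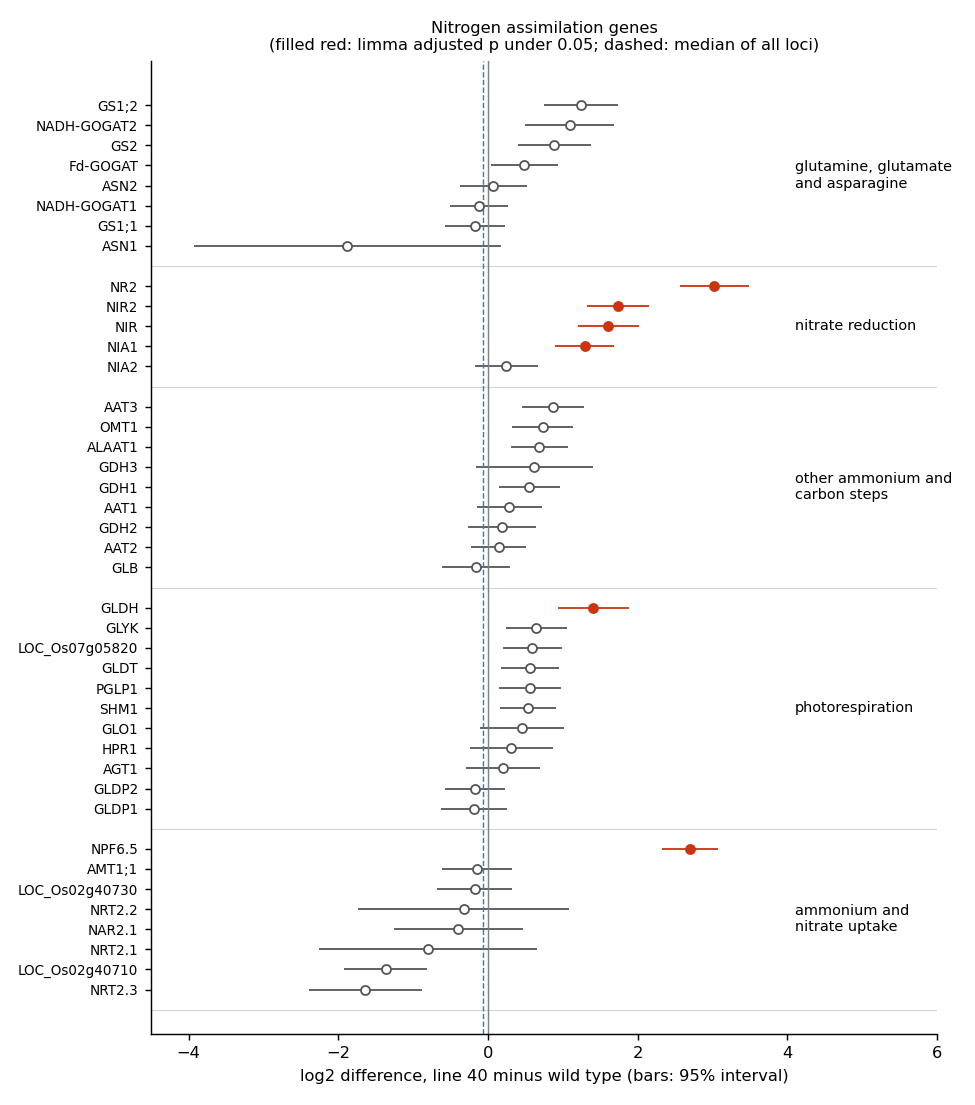
Log2 difference between line 40 and wild type (horizontal axis) with its 95% interval for the tested genes of glutamine, glutamate and asparagine synthesis and of 4 neighbouring lists; filled red points passed the test over all loci and the dashed line is the median of all loci. In the nitrate reduction list 4 of 5 points are filled, and among the 8 genes of amide and glutamate synthesis 0 are filled.

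At uptake the picture was mixed. NPF6.5 (LOC_Os10g40600), a nitrate transporter and sensor also called NRT1.1B, had signals of 124 and 163 in the wild type and 908 and 906 in line 40, and rose 6.47-fold (2.69, SE 0.14, limma adjusted p = 0.00785). It passed with each array left out (adjusted p up to 0.0381) but not without the filter on dim probes (adjusted p = 0.0583). The other 7 of the 8 uptake genes lay below 0, and all of these except AMT1;1 and NRT2.3 are also root markers. The lowest were the nitrate transporter NRT2.3 (-1.64, SE 0.29, adjusted p = 0.0669) and LOC_Os02g40710, one of a pair of neighbouring ammonium transporter genes (-1.36, SE 0.21, adjusted p = 0.0554). NRT2.1 and its partner protein NAR2.1 lay at -0.80 and -0.40 (adjusted p = 0.422 and 0.497). Neither NRT2.3 nor LOC_Os02g40710 passed, but both did after normexp and with median scaling, as did NRT2.3 without line 40 replicate 1 and LOC_Os02g40710 without wild type replicate 2.

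The list of other ammonium and carbon steps held glutamate dehydrogenases, aminotransferases, a 2-oxoglutarate carrier, a plastid phosphoenolpyruvate carboxylase and the nitrogen sensor PII. Of 9 tested members none passed in limma over all loci, where 2.07% of all tested loci did. At an unadjusted p under 0.05 there were 4, against 24.8% of all loci. Above 0 lay 8, against 43.7% of all loci, and the median was 0.55. The aspartate aminotransferase AAT3 (LOC_Os06g35540) had the smallest adjusted p, at 0.86 (SE 0.16, adjusted p = 0.0710), followed by the 2-oxoglutarate carrier OMT1 (0.73, adjusted p = 0.0873), the alanine aminotransferase ALAAT1 (0.68, adjusted p = 0.0883) and the glutamate dehydrogenase GDH1 (0.55, adjusted p = 0.131). PPC4, the carboxylase, was not tested, since in neither group did both arrays lie well above background.

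Photorespiration releases the ammonium that GS2 and Fd-GOGAT recapture. Of its 11 genes 1 rose and none fell (0.927% and 1.14% of all loci), 9 lay above 0 (43.7% of all loci), and the median was 0.53. The one that passed was GLDH (LOC_Os10g37180), the H protein of the glycine decarboxylase complex from which the ammonium comes, with signals of 3888 and 6274 in the wild type and 11419 and 14613 in line 40 (2.65-fold; 1.41, SE 0.19, limma adjusted p = 0.0421). It no longer passed when any 1 array was left out (adjusted p 0.0520 to 0.142), after quantile normalization (0.0613), after cyclic loess (0.0572) or without the filter on dim probes (0.0924). The P protein genes GLDP1 and GLDP2 of the same complex lay at -0.19 and -0.17 (adjusted p = 0.522 and 0.534), and the T protein gene GLDT at 0.56 (adjusted p = 0.123). Next to GLDH the smallest adjusted p values belonged to GLYK (0.65, adjusted p = 0.105) and LOC_Os07g05820 (0.59, adjusted p = 0.115), followed by SHM1 (0.53, adjusted p = 0.122).

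**Figure D4:**
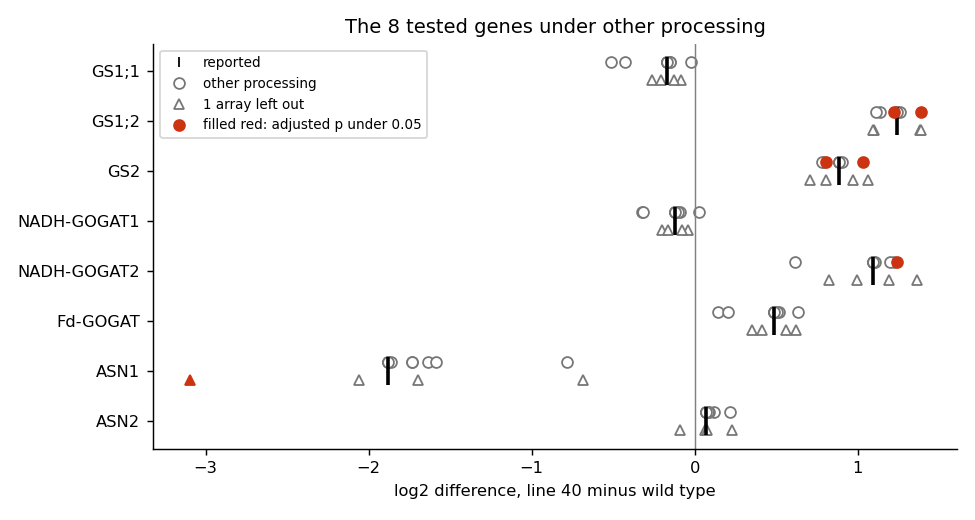
Log2 difference of each of the 8 tested genes (horizontal axis) as reported (black bar), under other processing (circles) and with 1 array left out (triangles), filled red where the adjusted p was under 0.05. GS1;2 and GS2 stay above 0 throughout and pass in 2 of 13 alternatives each, NADH-GOGAT2 in 1 and ASN1 in 1, and NADH-GOGAT1 and ASN2 cross 0.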

How the data were processed

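Cy3-labelled RNA was measured on custom Agilent arrays of 1 colour. Spot intensity is on a linear scale and, per the file headers, comes from Feature Extraction version 10.7.1.1 after background subtraction and detrending, with no normalization between arrays. The deposited value table holds the same intensity (62976 of 62976 spots equal within 0.01% on every array; column medians 61.8, 74.4, 57.1 and 63.3), on a linear scale, not centred. Flags of 0 or 1 for background, uneven and saturated spots came with the deposited spots.

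Control spots (1319) and probes with an uneven spot (32) were left out, and repeated spots were averaged. The log2 values were computed here from the deposited intensity by subtracting each array's 75th percentile over non-control spots. Testing was limited to probes above background (by the flag) throughout the wild type or throughout line 40, and each locus was represented by its brightest such probe. Groups were compared with limma 3.58.1 (R 4.3.3, with version 1.17.8 of data.table), two-sided, with Benjamini-Hochberg adjustment over 36900 loci and a threshold of 0.05; the fit was tested on simulated data. The number of arrays limits the precision. The planned normexp alternative used the median spot signal, as the files hold no mean signal.

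Named are the 9 genes, every list gene past the threshold, and up to 4 others per list with the smallest adjusted p. GLDP1, GLDP2, RCA, CAB2R and the root markers were named with their values known. The genes and lists were chosen with earlier results of these data known. Of the locus names, 26 passed a check by chromosome and position against the RefSeq gene table (ASM3414082v1), 30 had no entry, and the others did not resolve. NADH-GOGAT1, ASN1, ASN2, NR2, NIR, NIR2 and NPF6.5 are among those with no entry and keep the names used in the lists. No coordinates are given because the array design rests on another build. Probe and gene sequences were not used here.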

Additional observations from a re-analysis of the deposited data

How the results depend on the processing

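Under 13 alternatives, including 1 chosen after seeing the data (the 75th percentile over probes), GS1;1, GS1;2, GS2, NADH-GOGAT2, Fd-GOGAT and ASN1 kept their sign. Of the 8 genes 2 were higher after normexp (GS1;2 at 1.22, GS2 at 0.81), where 762 of all 36900 loci were. With median scaling 3 were higher (GS1;2 at 1.39, GS2 at 1.03, NADH-GOGAT2 at 1.24), where 1480 of 36900 loci were, against 342 as reported. Median scaling moved the median of all loci from -0.06 to 0.08, and NADH-GOGAT1 turned to 0.025 there. With 1 array left out, the ranges were 1.096 to 1.39 for GS1;2, 0.71 to 1.06 for GS2, 0.82 to 1.36 for NADH-GOGAT2, -3.10 to -0.69 for ASN1 and -0.091 to 0.23 for ASN2; 0 of the 8 were higher and 0 to 1 lower (ASN1). Fd-GOGAT minus NADH-GOGAT2 was -0.10 after normexp, and -0.95 to -0.26 with 1 array left out.

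Over all loci 762 were higher after normexp, 1480 higher and 1239 lower with median scaling, 156 lower after quantile normalization, 252 lower after cyclic loess, and 15 higher and 8 lower without the filter on dim probes, where more loci are tested. With 1 array left out 71 to 300 were higher and 253 to 1486 lower. Of 33 genes in the 4 neighbouring lists, 6 were higher and 0 lower, with 2 lower after normexp and 2 with median scaling, 0 higher without the filter, and 2 to 5 higher and 0 to 1 lower with 1 array left out. As reported, 18.2% of these 33 genes were higher and 0% lower, against 0.927% and 1.14% of all loci. With median scaling 8 of the 33 were higher, and after normexp 6. After quantile normalization 4 were higher, and after cyclic loess also 4. The causes were not tested.

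The sample labels do not say whether same-numbered arrays of the 2 groups were paired. Deviations of same-numbered arrays correlated at -0.07 across loci. With 2 arrays per group this is 1 correlation, which cannot settle the pairing. With the replicate number as a block GS1;2 stayed at 1.24 (limma adjusted p = 0.0774) and 313 loci were higher and 452 lower. The block ended the calls of NIA1 (adjusted p = 0.0558) and of the leaf markers PSBO and GAPA (0.0659 and 0.0658), which left 3 nitrate reduction genes and 2 leaf markers higher.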
